A study of Mus musculus with 6 samples.

Results

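The genes described here are 35 cell cycle and replication genes: the cyclins and cyclin-dependent kinases, the replicative helicase and nucleotide enzymes, and the genes of mitosis. They were chosen by gene symbol from a list, and 35 of 35 were among the 18437 genes of the deposited table. They were measured by RNA sequencing in pancreatic islets of male mice aged 30 weeks. The wild type group was Sec16b+/+ and the knockout group was Sec16b-/-, with 3 libraries each. The labels name no treatment, no strain background, no Cre driver and no feature of the deleted allele, so the knockout is described only as far as its genotype. Nothing in them ties a library to an animal of its own, and the p-values then measure only the spread between these libraries, which may be technical. The study's title asks about glucose homeostasis, and the comparison here asks how the genes of cell division differed between the genotypes.

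A cell enters the division cycle when D-type cyclins activate Cdk4 and Cdk6, which phosphorylate the retinoblastoma protein and release E2F factors. E2F factors, with cyclin E and Cdk2, turn on the genes of DNA replication, and cyclins A and B with Cdk1 then drive the cell through mitosis. Adult beta cells divide rarely, and cyclin D2 and Cdk4 are the cyclin and kinase best known for their growth in mice. Islet preparations also hold endothelial cells, immune cells and remnants of exocrine tissue.

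Values are normalized read counts, which are read counts divided by a size factor per library, and are close to the number of reads because 1 read was worth between 0.879 and 1.23 in them. The libraries held 22071895 to 26806787 reads. The targeted gene, Sec16b, read 1655, 773 and 1786 in the wild type libraries (replicates 1, 2 and 3) and 553, 433 and 750 in the knockout libraries (replicates 1, 2 and 3), so that the groups did not overlap (log2 fold change -1.22, SE 0.35, limma adjusted p = 0.993). Below, values always follow this order of replicates. All 10 beta cell markers looked for were present, and their sum was 2601539, 2763532 and 3558069 in the wild type group and 2535236, 2383082 and 3258244 in the knockout group. Wild type replicate 1 stood apart from the other wild type libraries in the genes of this set, and results that rest on it are given with and without it.

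None of the 35 genes passed the threshold of adjusted p under 0.05 in limma's test over 16042 genes, where the share called was 0.0%. Their limma adjusted p-values lay between 0.993 and 0.999. At an unadjusted p under 0.05, the count was 0 with limma, 0 with edgeR and 0 with DESeq2, against 3.08% of all genes tested with limma, 1.72% in the higher and 1.36% in the lower direction. With limma the genes had no shared direction, with 18 fold changes above 0 and 17 below, where 49.4% of all genes were above 0. The median limma log2 fold change, knockout minus wild type, was 0.03, against -0.003 over all genes. With edgeR and with DESeq2, 14 of the genes above 0 fell below 0 and no gene of the set moved the other way. Most of the set was then below 0, and the share of all genes below 0 with these methods is not given here. In bulk islets, fewer cells of a type and less RNA per cell cannot be told apart.

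The libraries differed widely in many of these genes, within each genotype as well as between them. Over all 6 libraries, the ratio of the highest to the lowest library had a median of 5.87 over the 35 genes and 1.56 over all genes. It was above 10 in 11 of the 35 genes, and in 4.15% of all genes. Wild type replicate 1 was the highest of the 6 libraries for 32 of the 35 genes, and for 20.5% of all genes. Other lists shared this spread: spindle, kinetochore and cytokinesis genes outside the 35 had a median ratio of 5.51 with wild type replicate 1 highest in 32, and the acinar and B lymphocyte markers had median ratios of 26.1 and 566. Among the 35, the exceptions were Ccnd1, highest in knockout replicate 3, and Ccnd2 and E2f1, highest in wild type replicate 3.

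**Figure D1:**
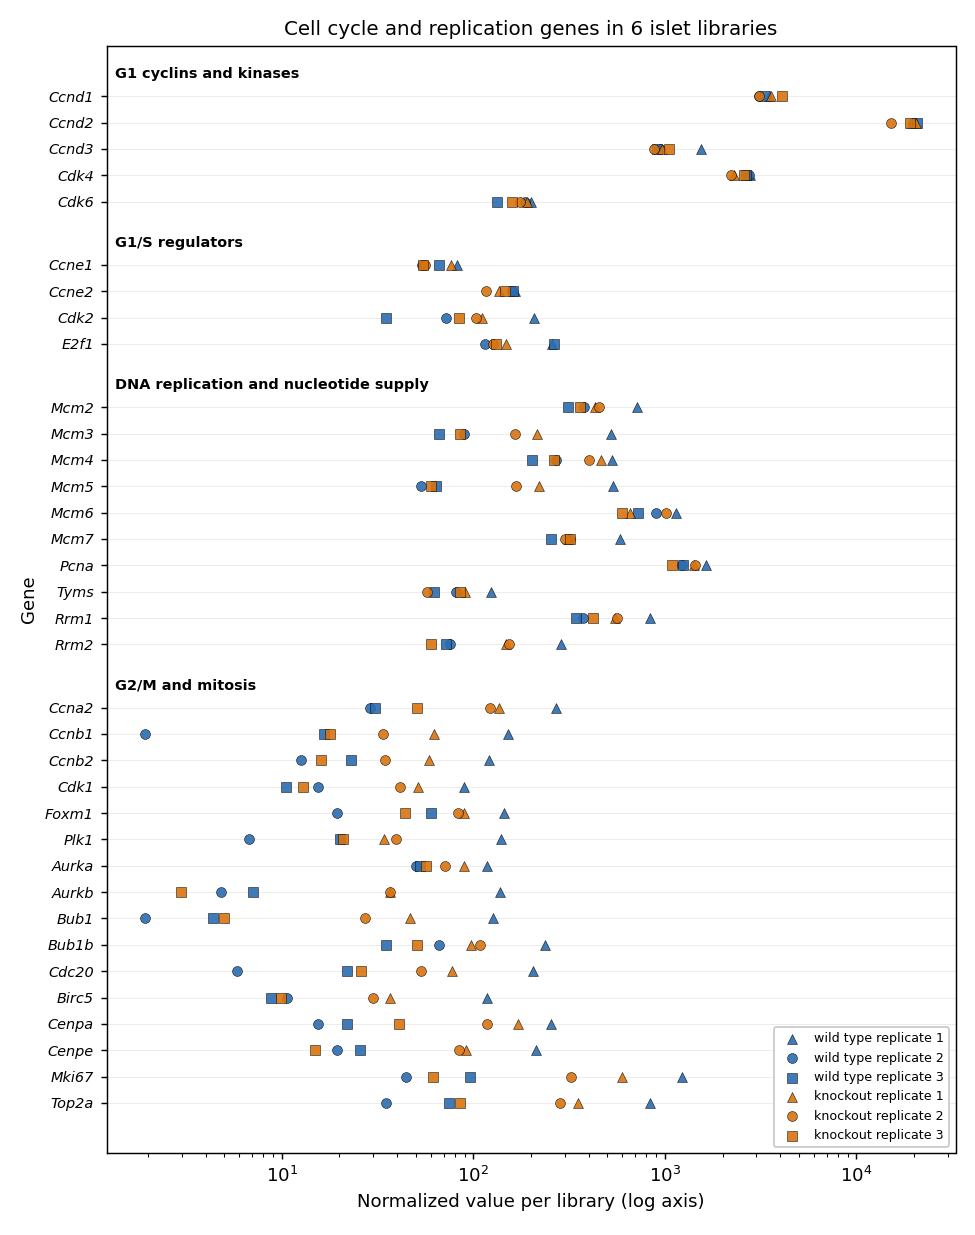
Normalized value of each of the 35 genes in each library, grouped by role, on a log axis with 1 point per library. The D-type cyclins and Cdk4 lie close together across libraries, while the mitotic genes spread widely, with wild type replicate 1 at the top of every gene in that group.

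The G1 genes varied little between libraries, with a median ratio of highest to lowest library of 1.36, and 2 of 5 had a fold change above 0. Ccnd2, cyclin D2, the main D-type cyclin of the set by level, read 19441, 19691 and 20696 in the wild type group and 20350, 15168 and 18980 in the knockout group. Its log2 fold change was -0.15 (SE 0.15, 95% confidence interval -0.49 to 0.20). Only knockout replicate 2 lay far below the others, and the groups overlapped. Cyclin D1, Ccnd1, read 3507, 3101 and 3316 in the wild type group and 3595, 3095 and 4093 in the knockout group (log2 fold change 0.11, SE 0.12). Ccnd3, cyclin D3, read 1538, 947 and 910 in the wild type group and 969, 878 and 1050 in the knockout group. Its log2 fold change was -0.19 (SE 0.21) with all libraries and 0.05 without wild type replicate 1, the only high library.

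Cdk4, the kinase partner of the D-type cyclins whose loss leaves mice short of beta cells, had the smallest p of the set. It read 2770, 2738 and 2658 in the wild type group and 2306, 2223 and 2603 in the knockout group, with means of 2722 ± 57.6 (SD, n = 3) and 2377 ± 200 (SD, n = 3). All 3 knockout libraries lay below all 3 wild type libraries. The log2 fold change was -0.20 (SE 0.09, 95% confidence interval -0.41 to 0.01), with an unadjusted limma p of 0.0638 and an adjusted p of 0.993. Complete separation of the groups with the knockout lower occurred in 2 of the 35 genes, Cdk4 and Ccne2, and in 5.22% of all genes. With the knockout higher it occurred in 0 of the 35 and in 3.85% of all genes, or 9.08% in either direction. Cdk6, the related kinase, read 200, 187 and 134 in the wild type group and 191, 175 and 158 in the knockout group (log2 fold change 0.03).

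Per kilobase of exon in GENCODE M21, Ccnd2 had the highest mean level of the set, 2025 normalized counts per kilobase. Cdk4 at 785 and Ccnd1 at 733 followed, and their libraries overlapped, from 684 to 852 for Cdk4 and from 657 to 869 for Ccnd1. Pcna stood at 560, Mcm6 at 180 and Ccnd3 at 119 per kilobase. Cdk6 was far below its relative Cdk4, at 12.5 per kilobase. Mki67, at a mean of 39.0, ranged from 4.43 to 122 per kilobase over the libraries, so its place in the order depends on the library.

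Of the genes at the G1/S step, 3 of 4 had a fold change below 0, and none passed the test. Ccne2, cyclin E2, a partner of Cdk2, read 165, 160 and 161 in the wild type group and 136, 116 and 146 in the knockout group, again with no overlap (log2 fold change -0.29, SE 0.17, limma adjusted p = 0.993). Its sister Ccne1, cyclin E1, read 82.2, 54.2 and 65.9 in the wild type group and 76.1, 56.2 and 54.8 in the knockout group, and the groups overlapped (log2 fold change -0.11). E2f1, the activating transcription factor, read 258, 115 and 265 in the wild type group and 148, 126 and 132 in the knockout group (log2 fold change -0.55, SE 0.34). Wild type replicate 2 was the lowest of all 6 for E2f1, so the groups overlapped. Cdk2, the S phase kinase, read 207, 71.7 and 35.2 in the wild type group and 112, 103 and 83.7 in the knockout group. Its log2 fold change was 0.29 with all libraries and 0.96 without wild type replicate 1.

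Replication genes had 3 members with a fold change above 0 and 7 below, with a median log2 fold change of -0.06. Without wild type replicate 1, 9 of the 10 were above 0 and the median was 0.38, while without wild type replicate 2 or 3 it was -0.25 or -0.39. It was -0.22 without knockout replicate 1, -0.11 without knockout replicate 2 and 0.15 without the third knockout library, and -0.23 with edgeR. Mcm2, Mcm5 and Mcm7 encode subunits of the hexameric helicase that unwinds DNA. Mcm2 read 719, 381 and 311 in the wild type group and 429, 452 and 361 in the knockout group (log2 fold change -0.09). Mcm5 read 539, 53.3 and 64.2 in the wild type group and 221, 167 and 59.8 in the knockout group (log2 fold change 0.08). Mcm7 read 585, 321 and 253 in the wild type group and 310, 301 and 320 in the knockout group. For each of these helicase genes wild type replicate 1 was the highest library, and for Mcm2 and Mcm5 knockout replicates 1 and 2 came next. The other helicase genes, Mcm3, Mcm4 and Mcm6, ranged from 65.9 to 524, from 201 to 530 and from 599 to 1140 over the 6 libraries.

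Pcna, the sliding clamp that holds DNA polymerase on its template, varied least among the replication genes, at 1633, 1232 and 1241 in the wild type group and 1427, 1429 and 1095 in the knockout group. Nucleotide supply genes had the same high library. Rrm1, the large subunit of ribonucleotide reductase, read 834, 375 and 346 in the wild type group and 547, 565 and 423 in the knockout group. Its log2 fold change was 0.09 with all libraries and 0.49 without wild type replicate 1, its highest library. Rrm2, the small subunit made in S phase, read 286, 75.5 and 72.1 in the wild type group and 148, 153 and 59.8 in the knockout group. Tyms, thymidylate synthase, read 123, 81.3 and 62.4 in the wild type group and 90.8, 57.1 and 84.7 in the knockout group. In both of these genes the groups overlapped.

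The 16 genes of G2 and mitosis had a median ratio of highest to lowest library of 15.3, and shared a pattern over the libraries. In 16 of the 16, the 3 highest libraries were wild type replicate 1, knockout replicate 1 and knockout replicate 2, a trio found in 24 of the 35 genes and in 10.3% of all genes. Mki67, the proliferation marker that coats mitotic chromosomes, read 1232, 44.5 and 95.8 in the wild type group and 596, 323 and 61.8 in the knockout group. These are 457 ± 671 and 327 ± 267 (SD, n = 3 each), and the highest library was 27.7 times the lowest. Both genotypes thus held libraries with high and with low Mki67. The log2 fold change was 0.39 (SE 1.33, 95% confidence interval -2.78 to 3.56). A two-sided exact permutation test gave p = 0.9, where 0.1 is the smallest p that 3 against 3 can give.

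Top2a, the topoisomerase that untangles replicated chromosomes, read 839, 34.9 and 74.7 in the wild type group and 352, 282 and 85.7 in the knockout group. Ccna2, cyclin A2, which acts in S phase and G2, read 272, 29 and 30.8 in the wild type group and 136, 122 and 50.8 in the knockout group. Ccnb1, cyclin B1, the partner of Cdk1 at mitotic entry, read 152, 1.94 and 16.7 in the wild type group and 62.6, 33.7 and 17.9 in the knockout group. In all 3 genes the wild type group held both the highest and the lowest library. Cdk1, the mitotic kinase, read 89.2, 15.5 and 10.6 in the wild type group and 51.5, 41.2 and 13 in the knockout group. Foxm1, a transcription factor of G2 and M genes, read 145, 19.4 and 59.8 in the wild type group and 89.6, 83.4 and 43.9 in the knockout group. Plk1, polo-like kinase 1, read 139, 6.78 and 20.2 in the wild type group and 34.4, 39.3 and 20.9 in the knockout group. Again wild type replicate 1 was the highest, and the other wild type libraries lay below knockout replicates 1 and 2.

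Birc5, survivin, a subunit of the chromosomal passenger complex, read 117, 10.7 and 8.79 in the wild type group and 36.8, 30 and 9.97 in the knockout group. The remaining mitotic genes had the same 3 libraries at the top. The Aurora kinases Aurka and Aurkb ranged from 50.4 to 118 and from 2.99 to 137. The spindle checkpoint genes Bub1 and Bub1b ranged from 1.94 to 127 and from 35.2 to 236, and Cdc20, the activator of the anaphase-promoting complex, from 5.81 to 204. The centromere genes Cenpa and Cenpe ranged from 15.5 to 254 and from 14.9 to 213, and cyclin B2, Ccnb2, from 12.6 to 121. Several of these values rest on a few reads in the low libraries, which limits their precision.

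The direction of the mitotic group changed with the method and with the libraries included. Its fold changes were above 0 in 12 genes and below 0 in 4, with a median log2 fold change of 0.29. That median was -0.45 with edgeR and -0.45 with DESeq2, which model reads and not log values, and it was 1.24 without wild type replicate 1. Without wild type replicate 2 or 3 it was -0.47 or -0.06, and without knockout replicate 1, 2 or 3 it was -0.01, 0.10 or 0.94. The median of all 35 genes was likewise -0.30 or -0.22 when wild type replicate 2 or 3 was left out, and -0.15, -0.03 or 0.37 when knockout replicate 1, 2 or 3 was. None of the 16 was called with any of these. DESeq2 gave no adjusted p to at least Cdk1, Ccnb1, Foxm1, Plk1, Aurka, Bub1, Cdc20 and Cenpe, so it could not call them. Without wild type replicate 1, knockout replicate 1 or knockout replicate 2, only 14 of the 16 were tested.

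Without wild type replicate 1, 33 of the 35 genes were tested, because Aurkb and Bub1 fell under the filter on low values. Of these, 28 were above 0 and 5 below, with a median log2 fold change of 0.66, against 49.3% above 0 and a median of -0.004 over all genes. Wild type replicate 1 was left out because it was the highest library for most of these genes, so the choice itself moved them towards a higher knockout, and nothing is read from these counts. No gene was called, and the lowest limma adjusted p among the members was 0.920. An unadjusted p under 0.05 was reached by 7 genes in the higher direction, Cdk2, Rrm1, Ccna2, Ccnb1, Cdc20, Cenpa and Top2a, against 2.78% of all genes in that direction and 4.37% in either. The log2 fold changes were 1.63 for Ccna2, 1.98 for Top2a and 2.29 for Cenpa. For Mki67 the log2 fold change became 1.79, and the exact permutation p was 0.4, where 0.2 is the smallest possible. Wild type replicates 2 and 3 then stood alone in their group, and with 2 libraries the precision is low.

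The summed level of the mitotic genes was 4397, 339 and 509 in the wild type group and 2028, 1488 and 517 in the knockout group. The summed markers of B and of T lymphocytes had the same 3 libraries at the top, wild type replicate 1 and knockout replicates 1 and 2. So had the sums of macrophage and of acinar markers. Gene by gene, this held for 7 of 7 B lymphocyte, 5 of 5 T lymphocyte and 10 of 11 acinar markers. It held for only 2 of 9 macrophage and dendritic cell markers, so that sum does not describe most of its genes. Over the B lymphocyte and plasma cell list, 7 of 8 markers were in the table, and their sum was 24125, 267 and 718 in the wild type group against 153632, 10697 and 7556 in the knockout group. Knockout replicate 1 was the highest there, and knockout replicate 3, low in the mitotic sum, was close to knockout replicate 2. For T lymphocytes, 5 of 9 were in the table, with sums of 66.8 to 883 in the wild type group and 120 to 577 in the knockout group. Their part in the mitotic result was not tested.

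All 9 macrophage and dendritic cell markers were in the table, with sums of 20041, 5306 and 7162 in the wild type group and 16490, 13187 and 4988 in the knockout group. The 11 acinar markers summed to 886240, 184318 and 558142 in the wild type group and 3209518, 1248009 and 114784 in the knockout group, so that knockout replicate 1 was highest, as for the B lymphocyte list. Endothelial markers, 8 of 8 in the table, summed to 8614 to 10459 in the wild type group and 10269 to 11172 in the knockout group, and wild type replicate 1 was the lowest. The table holds only genes with at least 1 read in every library, so whether a marker outside it was at 0 is not known here. The part of these cells in the result was not tested. Wild type and knockout sums overlapped for markers of alpha cells (172073 to 366582 and 240867 to 664758), duct cells (11671 to 15563 and 10860 to 15985), stellate cells and fibroblasts (2021 to 6561 and 2586 to 4237), and Schwann cells and neurons (4399 to 5987 and 5033 to 5708). Erythrocyte markers overlapped too (112 to 188 and 154 to 440), while delta and PP cell markers summed to 38335 to 43323 in the wild type group and 44285 to 65055 in the knockout group. Such sums follow the highest genes of a list. Gene by gene, 6 of 6 alpha cell markers had a log2 fold change above 0. Of the 10 beta cell markers, 1 was above 0 and 9 below, where 49.4% of all genes were above 0. No marker of these 2 lists was called.

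**Figure D2:**
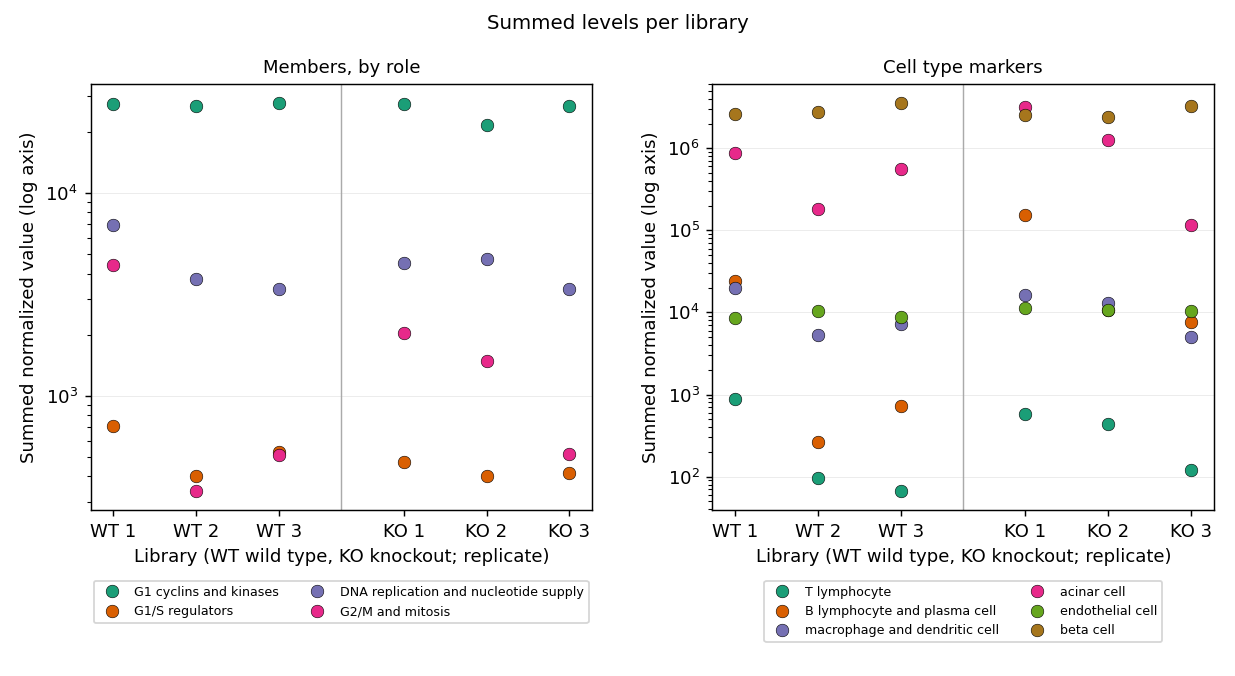
Summed normalized value per library of the 35 genes by role (left) and of markers of 6 cell types (right), on log axes, with 1 point per library. The mitotic and T lymphocyte sums are high in wild type replicate 1 and knockout replicates 1 and 2, the B lymphocyte sum is highest in knockout replicate 1 and low only in wild type replicates 2 and 3, while the G1 sum lies between 21539 and 27714 in every library.

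Mitotic and replication genes are known to be controlled through short motifs near their start sites. The promoters are shown as a description, and any part of these motifs in the library pattern was not tested. RefSeq windows (GRCm38.p6, from 250 bases before to 50 after the start) were found for 28 of the 35 genes, giving 30 windows. None was found for Ccnd1, Ccnd2, Ccne2, Mcm4, Ccna2, Foxm1 and Aurkb. The motifs searched on both strands were the cell cycle homology region (TTTGAA or TTCGAA), the CCAAT box, and an E2F element (TTTCCCGC, TTTGGCGC, TTTCGCGC or TTTGCCGC), and overlapping matches were allowed. The 200 bases before the start are printed for 4 mitotic genes, a helicase gene and Cdk4, 5′ to 3′ on the gene's strand, with motif matches in capitals.
Mki67, chr7:135716380-135716579, minus strand: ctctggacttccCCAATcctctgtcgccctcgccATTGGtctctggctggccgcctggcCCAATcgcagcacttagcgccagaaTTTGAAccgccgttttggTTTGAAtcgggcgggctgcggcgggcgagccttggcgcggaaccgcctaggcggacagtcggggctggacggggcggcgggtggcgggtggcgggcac
Top2a, chr11:99024190-99024389, minus strand: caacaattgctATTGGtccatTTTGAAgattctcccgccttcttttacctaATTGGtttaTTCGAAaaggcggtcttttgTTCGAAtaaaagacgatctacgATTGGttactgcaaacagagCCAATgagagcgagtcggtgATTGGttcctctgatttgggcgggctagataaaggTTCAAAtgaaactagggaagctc
Cdk1, chr10:69352913-69353112, minus strand: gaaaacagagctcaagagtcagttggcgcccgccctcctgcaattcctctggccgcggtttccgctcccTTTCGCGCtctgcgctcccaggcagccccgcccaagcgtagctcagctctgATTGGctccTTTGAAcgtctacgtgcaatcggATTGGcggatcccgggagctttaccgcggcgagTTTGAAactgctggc
Cdc20, chr4:118437344-118437543, minus strand: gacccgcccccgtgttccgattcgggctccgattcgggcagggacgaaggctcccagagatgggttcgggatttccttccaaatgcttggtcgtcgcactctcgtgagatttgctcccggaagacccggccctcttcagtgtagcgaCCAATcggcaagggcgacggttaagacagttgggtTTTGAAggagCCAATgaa
Mcm6, chr1:128359706-128359905, minus strand: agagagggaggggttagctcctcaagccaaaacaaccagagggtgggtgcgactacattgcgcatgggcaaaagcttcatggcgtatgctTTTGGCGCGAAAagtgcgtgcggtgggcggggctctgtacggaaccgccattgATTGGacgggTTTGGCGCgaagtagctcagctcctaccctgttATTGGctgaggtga
Cdk4, chr10:127063335-127063534, plus strand: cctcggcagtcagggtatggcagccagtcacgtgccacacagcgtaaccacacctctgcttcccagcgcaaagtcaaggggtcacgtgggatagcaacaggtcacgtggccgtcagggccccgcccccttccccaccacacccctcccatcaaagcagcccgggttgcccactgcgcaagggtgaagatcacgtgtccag
Cdk4 held none of these motifs in the stretch shown. Mki67, Top2a, Cdk1 and Cdc20 held both the homology region and CCAAT boxes, and Cdk1 also held an E2F element. Mcm6 held E2F elements and CCAAT boxes.

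Among the 13 windows of mitotic genes, 10 held the homology region and 12 a CCAAT box, against 19.2% and 37.4% of all 32851 windows. Of the 10 replication windows, 4 held an E2F element, against 2.26% of all windows, 9 held a CCAAT box and 2 the homology region. The 4 windows of G1 genes held the homology region in 0 and a CCAAT box in 1. A match is a description of these letters and not of binding, and the windows of 1 gene share bases.

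The wider cell cycle program gave 162 genes in the table of 167 listed, of which 160 were tested: 68 were above 0, 92 below and 0 called, with a median log2 fold change of -0.03. Without wild type replicate 1, 107 of 152 were above 0 and 45 below, with a median of 0.23, against 49.3% above 0 and a median of -0.004 over all genes. Then 14 had an unadjusted limma p under 0.05, 11 of them higher, against 4.37% and 2.78% of all genes. Wild type replicate 1 was the highest library in 110 of the 160, and the trio of high libraries was the same in 75. Leaving that library out thus moved these genes towards a higher knockout, and nothing is read from such counts, here or in the lists below. With all libraries, 8 of the 160 had every knockout library below the wild type ones and 1 had them above, against 5.22% and 3.85% of all genes. With all libraries, an unadjusted limma p under 0.05 was reached by 5 of the 160, all lower in the knockout group. Of all genes, 3.08% reached it in either direction and 1.36% in the lower direction. E2f6, a repressor E2F, read 709, 672 and 704 in the wild type group and 524, 524 and 549 in the knockout group (log2 fold change -0.38, SE 0.09, limma adjusted p = 0.993). E2f3, an activator, read 255, 228 and 259 in the wild type group and 198, 197 and 170 in the knockout group. E2f4, the E2F of resting cells, read 2188, 2232 and 2123 in the wild type group and 2047, 1766 and 1810 in the knockout group. The groups did not overlap for any of these, and the log2 fold changes of E2f3 and E2f4 were -0.39 and -0.22. E2f7, another repressor, was the 1 gene with every knockout library above the wild type ones, at 99.4, 61.8 and 50.8 against 44.1, 48.4 and 37.8.

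Rpa1, a subunit of the protein that coats single-stranded DNA, read 2875, 2448 and 2753 in the wild type group and 1800, 2273 and 2314 in the knockout group (log2 fold change -0.34, SE 0.13). Spc25, a subunit of the kinetochore Ndc80 complex, read 3931, 3055 and 4252 in the wild type group and 1750, 1954 and 2765 in the knockout group (log2 fold change -0.81, SE 0.20, limma adjusted p = 0.993). Its partners were far lower, with wild type replicate 1 the highest library and overlapping groups. Ndc80 read 83.2, 4.84 and 12.3 in the wild type group and 46.6, 31.9 and 14 in the knockout group (log2 fold change 0.61). Nuf2 read 86.2, 3.87 and 11.4 in the wild type group and 44.2, 34.7 and 9.97 in the knockout group (log2 fold change 0.58). Spc24 went the other way, at 112, 35.8 and 36 in the wild type group and 51.5, 34.7 and 22.9 in the knockout group (log2 fold change -0.60). Without wild type replicate 1 the log2 fold change of Spc24 was -0.06. In RefSeq the immediate neighbour of Spc25 is G6pc2, a beta cell gene of glucose metabolism. G6pc2 read 60736, 41817 and 56502 in the wild type group and 27321, 32531 and 50157 in the knockout group (log2 fold change -0.56, SE 0.28).

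None of the other lists held a called gene. Of the CDK inhibitors, 2 of 8 were above 0 and 6 below. Cdkn1a, p21, averaged 3885 ± 361 in the wild type group and 3965 ± 519 in the knockout group, Cdkn1b, p27, 2269 ± 377 and 2051 ± 211, and Cdkn2c, p18, 141 ± 38.1 and 109 ± 15 (SD, n = 3 each, as in the rest of this paragraph). Of the DREAM complex and B-Myb, regulators that repress cell cycle genes in resting cells or activate them in dividing ones, 1 of 5 was above 0. Its subunit Lin9 averaged 92.6 ± 16.4 in the wild type group and 78.5 ± 6.53 in the knockout group, and Lin52 305 ± 18.4 and 294 ± 31.4. Origin licensing and firing genes were above 0 in 7 of 17, and the origin recognition subunits Orc6 and Orc5 averaged 383 ± 21.8 and 626 ± 65.6 in the wild type group and 333 ± 43.2 and 563 ± 13.7 in the knockout group. The groups overlapped for each gene named in this paragraph.

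Replication fork genes were above 0 in 11 of 26, and in 22 of 26 without wild type replicate 1. Rfc5, a clamp loader subunit, averaged 253 ± 14.9 in the wild type group and 289 ± 43.4 in the knockout group (SD, n = 3 each, as in the rest of this paragraph). Spindle, kinetochore and cytokinesis genes were above 0 in 15 of 35 with a median of -0.07, and without wild type replicate 1 in 26 of 31 with a median of 0.58. That median was -0.56 without wild type replicate 2, -0.28 without wild type replicate 3, 0.30 when knockout replicate 3 was left out and -0.37 with edgeR. Bub3, of the spindle checkpoint, averaged 1351 ± 113 and 1166 ± 12.5 without overlap. Genes of mitotic entry and exit were above 0 in 6 of 17, and in 12 of 17 without wild type replicate 1. Of these, Fzr1, an activator of the anaphase-promoting complex, averaged 1035 ± 5.78 in the wild type group and 965 ± 41.1 in the knockout group without overlap, and the phosphatase gene Cdc25b 248 ± 156 and 166 ± 36.1. Chromatin genes of dividing cells were above 0 in 8 of 14, and in 12 without that library. The histone variant gene H2ax averaged 838 ± 161 in the wild type group and 709 ± 114 in the knockout group, and Ncapg, a condensin subunit, 36.4 ± 51 and 41.8 ± 20.6. The spread within wild type was wide for Cdc25b and Ncapg, in which wild type replicate 1 was the highest library.

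DNA damage checkpoint genes were above 0 in 7 of 12, and in 11 of 12 without wild type replicate 1. The kinase gene Atr averaged 502 ± 92.5 in the wild type group and 567 ± 22.8 in the knockout group, and the stress-induced gene Gadd45b 795 ± 173 and 1563 ± 854 (SD, n = 3 each). Of the beta cell proliferation signals, 7 of 14 were above 0. Prlr, the prolactin receptor, read 7389, 4251 and 5482 in the wild type group and 3870, 2881 and 4763 in the knockout group, and the groups overlapped (log2 fold change -0.57, SE 0.25). Myc, a growth-promoting transcription factor, read 676, 538 and 480 in the wild type group and 1167, 688 and 626 in the knockout group (log2 fold change 0.51, SE 0.26). Knockout replicate 1 was the highest library for Myc and Gadd45b.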

How the data were processed

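Bulk RNA sequencing of isolated islets gave 6 libraries, 3 per genotype, grouped by the genotype in the sample titles. The submitters' processing notes name HISAT2 as the aligner. Its version, the genome build, the counter and whether it used strand were not given in the sources used here, so near-identical, overlapping or antisense genes may share reads. The signal deposited by the authors is, from the values themselves, a count per gene over 1 factor for each library: 100% of the values came out as whole reads within 0.01 reads in each library. The table holds genes with at least 1 read in every library. A gene had to reach 10 in 3 or more libraries, which kept 16042 genes and left out 2395. The log2 of the deposited value plus a pseudocount of 1 was tested with limma 3.58.1 (limma-trend, two-sided, Benjamini-Hochberg over all genes tested, R 4.3.3), so fold changes of low genes are understated. Alternatives on the recovered reads used edgeR 4.0.16 (quasi-likelihood) and DESeq2 1.42.0, and the method was tested on simulated data. Mki67 was also tested by an exact permutation of the libraries in SciPy 1.17.1. Other alternatives were pseudocounts of 0.5 and 5, no filter, a mean of at least 50, TMM scaling, no variance trend, a replicate block and each library left out in turn. Levels per kilobase used GENCODE M21 exon lengths. The 35 genes, the other lists and the markers were chosen with earlier results of these data known. Named were 24 genes of the set with their values in every library, and the others by range. Of each other list, the genes at an unadjusted p under 0.05 were named or, where fewer than 2 reached it, those with the smallest p. A few were chosen after their values were seen (Nuf2, Ndc80, Spc24, E2f7, Cdkn1a, G6pc2). The values of 1 marker gene are not reported here.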

Additional observations from a re-analysis of the deposited data

How the results depend on the processing

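Across 15 alternatives no gene of the set was called. For several low mitotic genes, Cdk1 and Plk1 among them, DESeq2 gave no adjusted p and so could not call them. Aurkb and Bub1 were not tested in every fit with a library left out. DESeq2 called 13 genes of the whole table, 0.112% of the 11658 to which it gave an adjusted p, and edgeR and limma called 0. The median log2 fold change of pocket proteins and the E2F family was -0.10, and it was -0.18 with edgeR and -0.17 with DESeq2, with a range of -0.24 to -0.027 over left-out libraries. Leaving out libraries moved the medians of the DNA damage checkpoint from -0.0040 to 0.33 and of the G1 genes from -0.18 to 0.053. Of 56 named genes, 14 changed sign under edgeR and DESeq2 and 29 under a left-out library. The cause was not tested.

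Under edgeR and then DESeq2 the log2 fold changes were for Mki67 -0.48 and -0.48, Top2a -0.39 and -0.39, Cdk1 -0.12 and -0.12, Ccna2 -0.095 and -0.094, Ccnb1 -0.58 and -0.57, Foxm1 -0.045 and -0.042, and Plk1 -0.80 and -0.81. For Cdk2 they were -0.064 and -0.061, Mcm5 -0.55 and -0.55, Rrm1 -0.013 and -0.0098, Aurka -0.021 and -0.017, Bub1 -0.76 and -0.76, Cdc20 -0.56 and -0.56, and Cenpe -0.42 and -0.42.

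With each library left out in turn the log2 fold change ran, for Mki67 -0.59 to 1.79, Top2a -0.30 to 1.98, Cdk1 -0.30 to 1.19, Ccnb1 -0.59 to 2.27, Foxm1 -0.43 to 0.99, Plk1 -0.79 to 1.29, Birc5 -0.66 to 1.13 and Ccnd3 -0.33 to 0.053. The range was, for Cdk6 -0.15 to 0.14, Ccne1 -0.26 to 0.044, Cdk2 -0.30 to 0.96, Mcm2 -0.34 to 0.26, Mcm5 -0.52 to 1.14, Mcm7 -0.48 to 0.12, Pcna -0.12 to 0.081 and Tyms -0.39 to 0.093. The range was, for Rrm1 -0.14 to 0.49, Rrm2 -0.41 to 0.58, Mcm3 -0.58 to 0.91, Mcm4 -0.041 to 0.66, Ccnb2 -0.71 to 0.88, Aurka -0.15 to 0.46, Aurkb -0.90 to 1.01 and Bub1 -0.39 to 1.53. The range was, for Bub1b -0.62 to 0.74, Cdc20 -0.50 to 1.96, Cenpe -0.58 to 1.11, Lin52 -0.13 to 0.026 and Cdc25b -0.68 to 0.051.

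The replicate numbers are shared by the genotypes in the labels, with no word on what they pair. Deviations of same-numbered libraries correlated at 0.43, 0.0037 and 0.37 across genes, so the criterion of 0.1 for every pair was not met. With 3 libraries per group this cannot exclude a pairing. Wild type replicates 1 and 3 each correlated best with the knockout library of the same number. Wild type replicate 2 correlated best with knockout replicate 3, at 0.199. With the replicate block 0 genes were called, as without it, 0 of them in the set. The block cannot change the fold changes, since each replicate number holds a library of each genotype, so the median of the set was 0.03 by design. At 3 libraries per group and a median SE of 0.199 over all genes, the spread between libraries limits what can be called, and so do the few reads of the low mitotic genes.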
